A study of Mus musculus with 9 samples.

Results

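The 10 genes described here make, break down, carry and sense retinoic acid in the mouse, and were taken by symbol from the 52609 genes of the annotation. Stra6, Rdh10, Aldh1a2 and Aldh1a3 stand for uptake of retinol and synthesis, Cyp26a1 and Cyp26b1 for breakdown, Crabp1 and Crabp2 for binding inside the cell, and Rarb and Rarg for the nuclear receptors. All 10 genes passed the filter on low counts that left 18096 genes for testing. Their messenger RNA was measured by RNA sequencing in 9 libraries of lines labelled as epiblast stem cells, which are grown from the epiblast of the early mouse embryo on a layer of inactivated embryonic fibroblasts. The Dkk1_KO group (3 libraries) is a line labelled as a knockout of Dkk1, which encodes a secreted inhibitor of Wnt signalling, kept in activin A and FGF2 with no inhibitor listed. The IWP2_removed group (2 libraries) comes from cells derived with the inhibitor and then kept in activin A and FGF2 without it. In the IWP2 group (2 libraries) the same factors were given together with IWP2 at 5 µM, a small molecule that blocks the enzyme Porcupine and with it the release of Wnt proteins. The control group (2 libraries) is the line labelled as control, kept in FGF2 (10 ng/mL) plus activin A (20 ng/mL), again with no inhibitor listed. The series describes 4 lines, so each group is 1 line and a difference between lines cannot be told apart from the effect of the knockout or the inhibitor. Nothing says that the replicates of a line came from separate cultures, and p-values then measure only the spread between these libraries.

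Retinoic acid is made from retinol (vitamin A) in successive oxidations, the first by retinol dehydrogenases such as RDH10 and the next by the ALDH1A enzymes. It reaches the nucleus with the help of CRABP proteins and binds the receptors RARA, RARB and RARG, which sit with RXR partners on paired DNA motifs and switch genes on when the ligand is present. CYP26 enzymes destroy it, and in the mouse gastrula synthesis by ALDH1A2 in mesoderm and breakdown by CYP26A1 shape where the signal acts along the body axis. Rarb and Cyp26a1 are themselves textbook target genes of the receptors.

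The receptor motif was searched in the RefSeq promoter windows, each reaching from 250 bases before a gene's start to 50 after it (assembly GRCm38.p6), because this is the motif that the receptors bind. The motif called DR5 is a pair of core units in the same orientation, each unit being AGGTCA or else AGTTCA or else GGGTCA or else GGTTCA, with any 5 bases (NNNNN) between them, on either strand. Windows were at hand for 7 of the 10 genes, 11 windows in all. Only the windows of Rarb and Cyp26a1 among these 11 held a DR5, against 0.0974% of all 32851 windows (32 windows). The same units 2 bases apart, the DR2 motif, were in none of the 11 windows and in 0.268% of all windows (88 windows). A match is a description of letters and not proof of a bound site. The matches are shown with the core units in capitals and the spacer in lower case, each read in the direction in which the units read as above. They share 15 of their 17 bases.
Rarb: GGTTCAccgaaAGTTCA
Cyp26a1: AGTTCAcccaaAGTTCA

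The 250 bases before the start of each of these genes follow, 5′ to 3′ on the strand of the gene, with the core units again in capitals. In Rarb (chr14:16575477-16575726, minus strand) the motif runs from 53 to 37 bases before the RefSeq start and lies on the gene's own strand. In Cyp26a1 (chr19:37697558-37697807, plus strand) it runs from 32 to 16 bases before the start and lies on the opposite strand, so that its complement is printed.
Rarb: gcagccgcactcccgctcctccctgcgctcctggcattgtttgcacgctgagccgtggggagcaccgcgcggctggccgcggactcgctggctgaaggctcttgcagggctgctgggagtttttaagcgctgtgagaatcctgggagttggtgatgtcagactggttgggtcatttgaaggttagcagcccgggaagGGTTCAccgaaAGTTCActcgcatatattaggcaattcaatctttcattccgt
Cyp26a1: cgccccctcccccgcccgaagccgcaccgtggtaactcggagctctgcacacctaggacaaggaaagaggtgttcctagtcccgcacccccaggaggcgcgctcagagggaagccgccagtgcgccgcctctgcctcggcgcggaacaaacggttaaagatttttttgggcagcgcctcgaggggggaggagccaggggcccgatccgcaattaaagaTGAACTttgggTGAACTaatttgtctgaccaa

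The libraries held 10849490 to 17892751 estimated reads. Dkk1 itself had 0.701, 0.835 and 1.13 CPM (counts scaled to a common library size) in the Dkk1_KO libraries, against 6.77 and 8.95 CPM in the control libraries. In estimated reads Dkk1 had 10, 11 and 16 in Dkk1_KO, 57 and 93 in IWP2_removed, and 52 and 6.01 in IWP2. IWP2 replicate 2 held the fewest, so a low Dkk1 level was not confined to Dkk1_KO. The Dkk1_KO libraries stood apart from the others, and most of the markers of their labelled cell type fell. Of 8 epiblast markers 5 fell in Dkk1_KO and 2 rose. Pou5f1 and Nanog, which mark the epiblast, had 1.14 to 1.70 and 1.84 to 2.17 CPM in Dkk1_KO, against 442 to 473 and 169 to 170 CPM in control. Utf1 rose to 19.9 times the control level (edgeR adjusted p = 2.08e-05) and Dnmt3b to 3.31 times (edgeR adjusted p = 0.000433), and Sox2 did not pass (log2 −0.20 ± 0.28 SE, edgeR adjusted p = 0.588). The summed level of these 8 markers was 205 to 220.5 TPM (a relative level that allows for transcript length) in Dkk1_KO against 675 to 876 TPM in control. The summed level of 8 trophoblast markers was 743 to 800 TPM in Dkk1_KO against 3.95 to 5.76 TPM in control, with Elf5, Hand1 and Krt7 among those that were high. Of these 8 markers 7 passed the filter, and 6 rose and 0 fell in Dkk1_KO, where 21.3% of all genes tested rose. Hand1 alone had 372 to 400 TPM in Dkk1_KO. Ascl2 had only 0.621 to 0.832 TPM there, and Tpbpa, which did not pass the filter, had 2, 0 and 0 reads. The summed level of 10 fibroblast markers, which the feeder layer carries, was 370 to 373 TPM in Dkk1_KO against 817 to 1034 TPM in control. Between Dkk1_KO libraries the correlation of log expression was 0.996 to 0.997, between Dkk1_KO and the other 6 libraries 0.849 to 0.881, and among the other 6 libraries 0.955 to 0.986. The part of these markers in the Dkk1_KO results was not tested. In bulk libraries fewer cells of a type and less RNA per cell cannot be told apart.

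The comparison of Dkk1_KO with control asks what goes with loss of a Wnt inhibitor, and those of IWP2_removed and IWP2 what goes with blocking Wnt release and then ending the block. In Dkk1_KO, 7 of the 10 genes fell and none rose against control (edgeR, adjusted p below 0.05), where 23.0% of all genes tested fell, 21.3% rose and 44.3% changed in either direction. At an unadjusted p below 0.05 the counts were 8 lower and 0 higher, against 9384 of all 18096 genes tested in either direction. DESeq2 and limma each called 7 lower and 0 higher. The 7 of limma differ from those of edgeR by the loss of Rdh10 (adjusted p = 0.0639) and the gain of Rarg (adjusted p = 0.0238). Without control replicate 2 the count was 4, and with the Dkk1_KO libraries averaged to 1 it was 1, Stra6. The median log2 fold change of the 10 genes was −1.59, against −0.03 over all genes tested. In 8 of the 10 genes every Dkk1_KO library lay below every control library, and in Cyp26b1 every one lay above. The share of all genes tested that separate in this way was not worked out, so these counts have no background. In IWP2_removed and in IWP2 a single gene of the 10, Cyp26a1, fell against control and none rose. The background of genes that fell was 0.586% in IWP2_removed (1.25% in either direction) and 0.917% in IWP2 (2.19% in either direction). At an unadjusted p below 0.05, 1 gene was higher and 2 were lower in IWP2_removed, and 4 were higher and 2 lower in IWP2. Over all 18096 genes tested, 2154 in IWP2_removed and 2972 in IWP2 passed that level in either direction. DESeq2 called 0 higher and 1 lower in IWP2_removed and 3 higher and 1 lower in IWP2, and limma called only Cyp26a1 in each. The median log2 fold change of the 10 genes was 0.11 in IWP2_removed and 0.22 in IWP2, against medians of 0.005 and 0.007 over all genes tested. Between IWP2_removed and IWP2 none of the 10 genes passed in edgeR, DESeq2 or limma, where 0.0608% of all genes did (0.0387% higher and 0.0221% lower). Of the 10 genes, 2 were lower and 0 higher at an unadjusted p below 0.05, against 1754 of all 18096 genes tested in either direction. The median log2 fold change of the 10 genes was −0.16. These comparisons share the 2 control libraries, so their values for a gene are given side by side and are not independent of each other.

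**Figure D1:**
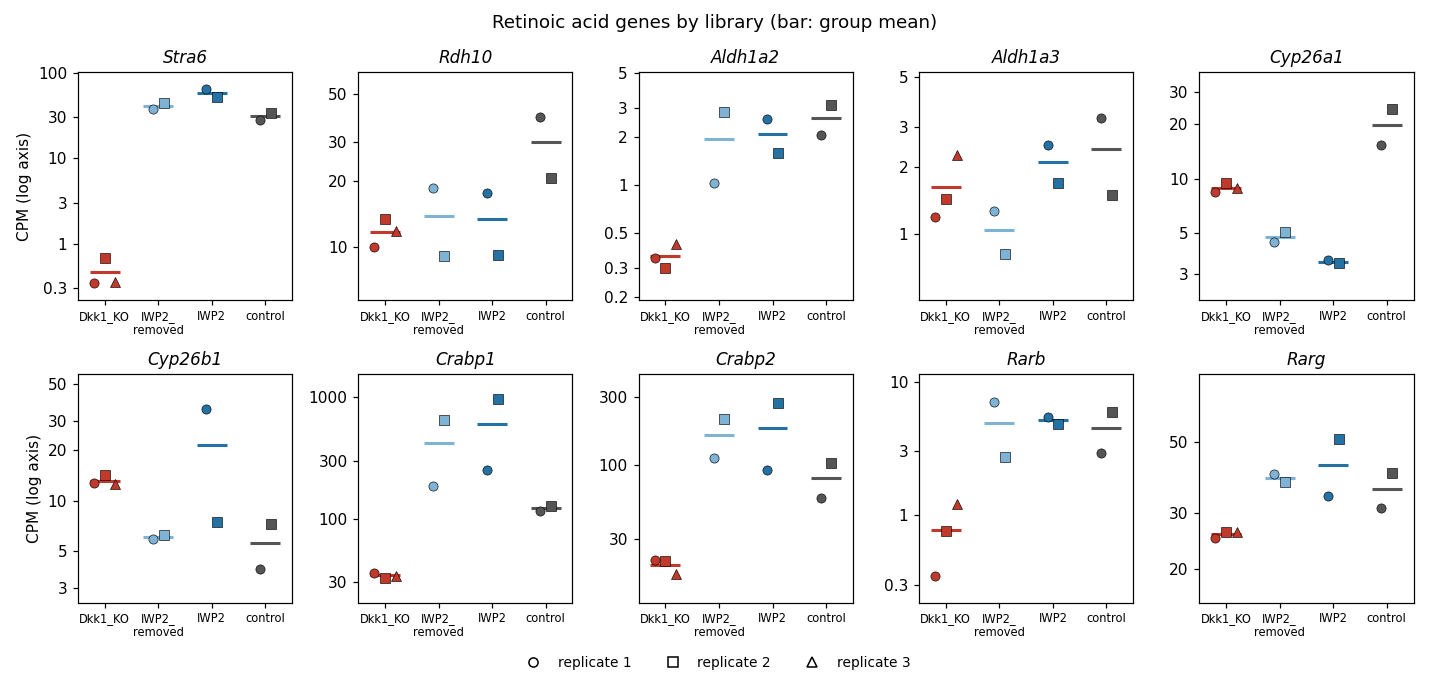
Level of each of the 10 genes in every library, in CPM on a log axis, for the groups Dkk1_KO, IWP2_removed, IWP2 and control from left to right; symbols are replicates and bars are group means. Stra6, Aldh1a2, Crabp1, Crabp2 and Rarb lie lowest in the 3 Dkk1_KO libraries, while Cyp26a1 is lowest in the 2 IWP2 libraries at 3.43 and 3.56 CPM.

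Among the genes of uptake and synthesis, Stra6 had the largest change in Dkk1_KO. It encodes the membrane receptor that takes up retinol from its carrier protein in the blood (chr9:58063788-58153996, GRCm38). Stra6 had 0.35, 0.683 and 0.354 CPM in the Dkk1_KO libraries, 37.9 and 44.1 CPM in IWP2_removed, 64.0 and 52.7 CPM in IWP2, and 27.8 and 34 CPM in control. The Dkk1_KO values rest on 5, 9 and 5 reads, against 312 and 547 reads in control. The 4 groups did not overlap, and the order from the top was IWP2, IWP2_removed, control and Dkk1_KO. In Dkk1_KO the level fell to 0.0151 of that in control, a log2 fold change of −6.05 ± 0.26 (SE; edgeR adjusted p = 1.64e-06), and this call held under all 20 alternatives tried. In IWP2 Stra6 was 1.89 times the control level, a log2 fold change of 0.92 ± 0.21 that did not pass (edgeR adjusted p = 0.0651). DESeq2 called it (adjusted p = 0.00561), as did edgeR without IWP2 replicate 2 (adjusted p = 0.0409). In IWP2_removed the log2 fold change was 0.41 ± 0.21 against control (edgeR adjusted p = 0.512) and −0.51 ± 0.21 against IWP2 (edgeR adjusted p = 0.467). Stra6 overlaps Ccdc33 on the other strand and Gm16131 on its own strand. Reads from any stretch shared with Gm16131 are assigned by estimate.

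Rdh10 encodes the retinol dehydrogenase of the first oxidation step (chr1:16105774-16133734). It had 9.95, 13.4 and 11.8 CPM in Dkk1_KO, 18.5 and 9.11 CPM in IWP2_removed, 17.5 and 9.12 CPM in IWP2, and 39.4 and 20.6 CPM in control. Control was the highest group and did not overlap any other, whereas the other 3 groups overlapped each other. In Dkk1_KO Rdh10 fell to 0.392 of the control level (log2 −1.35 ± 0.40 SE, edgeR adjusted p = 0.0235). The call was lost under 5 of 20 alternatives. These were the fits without Dkk1_KO replicate 1 (adjusted p = 0.0793), without Dkk1_KO replicate 3 (adjusted p = 0.066) and without control replicate 1 (log2 −0.81, adjusted p = 0.219), limma on log2(TPM + 1) (adjusted p = 0.0639), and the Dkk1_KO libraries averaged to 1 (adjusted p = 0.221). The level was 0.462 of control in IWP2_removed (log2 −1.12 ± 0.44, edgeR adjusted p = 0.356) and 0.446 of control in IWP2 (log2 −1.17 ± 0.44, edgeR adjusted p = 0.234), and neither passed. Both passed when the 6 libraries without Dkk1_KO were fitted with the file-name letter as a block, at adjusted p = 0.0394 in IWP2_removed and 0.0232 in IWP2, an alternative chosen after seeing the data. In the 3 groups other than Dkk1_KO replicate 1 was the higher library. The summed level of 7 mesoderm markers was also higher in replicate 1 than in replicate 2 of these groups, at 33.1 and 16.8 TPM in IWP2_removed, 93.5 and 18.3 TPM in IWP2, and 62.8 and 26.9 TPM in control, and was 3.17 to 3.70 TPM in Dkk1_KO. The gene T made up most of that sum in each of these 6 libraries. The sum of 10 endoderm markers was likewise higher in replicate 1, at 11.7 and 8.42 TPM in IWP2_removed, 17.0 and 3.81 TPM in IWP2, and 26 and 19.5 TPM in control. Foxa2 made up most of the endoderm sum in each of these 6 libraries. Sox17, of the same list, was higher in replicate 2 of IWP2_removed and control and in replicate 1 of IWP2. The sum of 8 neural ectoderm markers was also higher in replicate 1, at 59.5 and 52.7 TPM in IWP2_removed, 80.1 and 45.9 TPM in IWP2, and 72.6 and 53.3 TPM in control. The part of these marker sums in the Rdh10 values was not tested.

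Aldh1a2 and Aldh1a3 encode retinaldehyde dehydrogenases, which carry out the last step to retinoic acid, and both were scarce. Aldh1a2 (chr9:71215789-71296243) had 0.35, 0.304 and 0.425 CPM in Dkk1_KO, 1.03 and 2.83 CPM in IWP2_removed, 2.56 and 1.57 CPM in IWP2, and 2.05 and 3.17 CPM in control. The Dkk1_KO libraries, with 4 to 6 reads each, lay below the other 6 libraries, which overlapped between groups. The gene fell to 0.14 of the control level in Dkk1_KO (log2 −2.84 ± 0.53 SE, edgeR adjusted p = 0.00293). On the log2(TPM + 1) scale used with limma, where low genes are compressed, the change was −0.77 (adjusted p = 0.00956). Aldh1a3 (chr7:66390890-66427517) had 1.19, 1.44 and 2.26 CPM in Dkk1_KO, 1.27 and 0.817 CPM in IWP2_removed, 2.50 and 1.68 CPM in IWP2, and 3.30 and 1.49 CPM in control. No comparison of Aldh1a3 passed, and the lowest adjusted p against control, 0.392 in edgeR, was that of Dkk1_KO (log2 −0.53 ± 0.47). Both IWP2_removed libraries lay below both control libraries (log2 −1.17 ± 0.53, edgeR adjusted p = 0.438).

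The hydroxylase gene Cyp26a1 was the only one of the 10 that fell in all 3 comparisons with control. Cyp26a1 encodes an enzyme that inactivates retinoic acid (chr19:37697798-37701536) and carries the DR5 motif printed above. It had 8.48, 9.41 and 8.84 CPM in Dkk1_KO, 4.48 and 5.09 CPM in IWP2_removed, 3.56 and 3.43 CPM in IWP2, and 15.3 and 24.2 CPM in control. The 4 groups did not overlap, and the order from the top was control, Dkk1_KO, IWP2_removed and IWP2. Relative to control the level fell to 0.45 in Dkk1_KO (log2 −1.15 ± 0.22 SE, edgeR adjusted p = 0.00349), to 0.242 in IWP2_removed (log2 −2.05 ± 0.26, edgeR adjusted p = 0.0135) and to 0.177 in IWP2 (log2 −2.50 ± 0.27, edgeR adjusted p = 0.00438). IWP2_removed was 1.37 times IWP2, and this difference did not pass (log2 0.45 ± 0.26, edgeR adjusted p = 0.698). The IWP2 call ended, at the same fold change, when only the 2 groups compared were fitted (adjusted p = 0.167), when the 6 libraries without Dkk1_KO were fitted (adjusted p = 0.0888) or when the Dkk1_KO libraries were averaged to 1 (adjusted p = 0.0882). The IWP2_removed call ended under 9 of 22 alternatives, with adjusted p between 0.0552 and 0.235. Among these were the fits without any of the Dkk1_KO libraries, without either IWP2_removed library and without control replicate 2, which gave a log2 fold change of −1.67. The Dkk1_KO call ended only with the Dkk1_KO libraries averaged to 1 (adjusted p = 0.127).

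Cyp26b1, the paralogue with the same kind of activity (chr6:84571414-84593908), followed another pattern. It had 12.7, 14.3 and 12.5 CPM in Dkk1_KO, 5.87 and 6.22 CPM in IWP2_removed, 35.5 and 7.49 CPM in IWP2, and 3.92 and 7.21 CPM in control. Every Dkk1_KO library lay above every control library, and the IWP2 mean came from 1 high library. The level in Dkk1_KO was 2.34 times control, which did not pass (log2 1.23 ± 0.57 SE, edgeR adjusted p = 0.116). It passed without IWP2 replicate 1 (adjusted p = 0.00582), without IWP2 replicate 2 (adjusted p = 0.00453) and when only the 2 groups compared were fitted (adjusted p = 0.0078), at log2 fold changes of 1.20 to 1.23. In IWP2 the log2 fold change against control was 1.93 ± 0.62 (edgeR adjusted p = 0.159). With IWP2 replicate 2 left out it was 2.64 (adjusted p = 0.00645), so that the value is that of replicate 1. In IWP2_removed the log2 fold change was 0.11 ± 0.62 against control (edgeR adjusted p = 0.986) and −1.83 ± 0.61 against IWP2 (edgeR adjusted p = 0.339), and the comparison with IWP2 passed without IWP2 replicate 2 (log2 −2.54, adjusted p = 0.019).

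Per length, the level of Cyp26a1 was 1.82, 1.64 and 1.91 times that of Cyp26b1 in the Dkk1_KO libraries, 2.06 and 2.22 times in IWP2_removed, 0.259 and 1.23 times in IWP2, and 8.43 and 6.65 times in control (ratios of TPM). The control libraries lay above all others in this ratio. In IWP2 replicate 1 alone was Cyp26b1 the more abundant of the pair, at 6.41 TPM against 1.66 TPM for Cyp26a1.

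**Figure D2:**
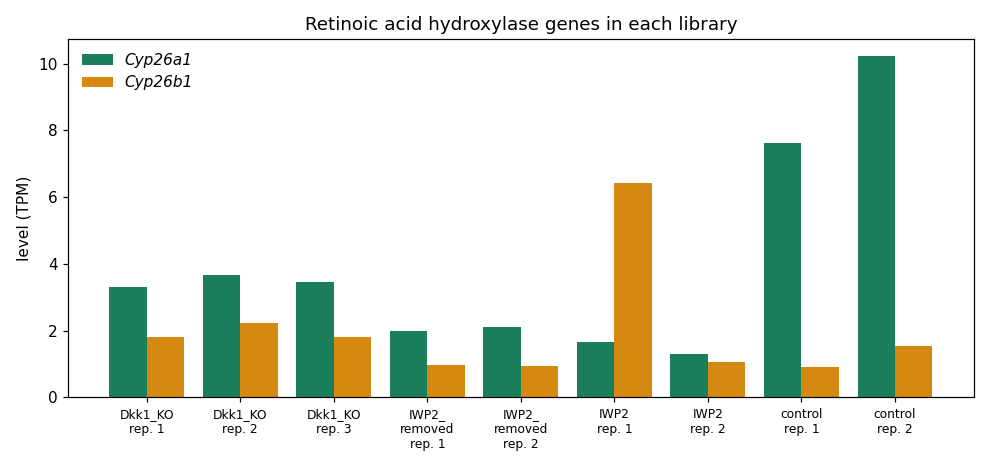
Level of Cyp26a1 (green) and Cyp26b1 (orange) in every library in TPM, with Dkk1_KO, IWP2_removed, IWP2 and control libraries from left to right. Cyp26a1 reaches 7.63 and 10.2 TPM in the control libraries and stays between 1.31 and 3.67 TPM in all others, and Cyp26b1 is highest in IWP2 replicate 1 at 6.41 TPM.

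The binding proteins were the most abundant products of the 10 genes in every group. Crabp1 averaged 36.6 ± 1.77 TPM in Dkk1_KO (SD, n = 3), 486 ± 369 TPM in IWP2_removed, 667 ± 486 TPM in IWP2 and 154 ± 9.26 TPM in control (SD, n = 2 each). Crabp2 ranked next in each group, at 17.3 ± 1.88, 153 ± 59.4, 163 ± 95.4 and 81.5 ± 22.8 TPM in the same order of groups. Crabp1 encodes a cytosolic carrier of retinoic acid often linked to its removal (chr9:54764748-54773110). It had 35.9, 32.5 and 34 CPM in Dkk1_KO, 184 and 655 CPM in IWP2_removed, 251 and 963 CPM in IWP2, and 117 and 126 CPM in control. All 4 libraries of IWP2_removed and IWP2 lay above control, and all 3 of Dkk1_KO lay below it. In Dkk1_KO the level fell to 0.281 of control (log2 −1.83 ± 0.59 SE, edgeR adjusted p = 0.0334). That call was lost with any single Dkk1_KO or control library left out (adjusted p 0.0818 to 0.12, log2 −1.89 to −1.74). In IWP2 the level was 5 times control (log2 2.32 ± 0.67, edgeR adjusted p = 0.126) and in IWP2_removed 3.46 times control (log2 1.79 ± 0.66, edgeR adjusted p = 0.317), and neither passed. DESeq2 called the IWP2 difference (adjusted p = 0.0336), as did edgeR without IWP2 replicate 1 (log2 2.97, adjusted p = 0.0184).

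Crabp2 encodes the carrier that hands retinoic acid to the receptors in the nucleus (chr3:87948666-87953376). It had 21.2, 21.0 and 17.1 CPM in Dkk1_KO, 112 and 211 CPM in IWP2_removed, 91.7 and 271 CPM in IWP2, and 58.7 and 104 CPM in control. IWP2_removed lay above control, IWP2 overlapped it, and Dkk1_KO lay below every other library. In Dkk1_KO the level fell to 0.243 of control (log2 −2.04 ± 0.46 SE, edgeR adjusted p = 0.00693), and the call was lost without control replicate 2 (log2 −1.54, adjusted p = 0.0677). The log2 fold change was 0.99 ± 0.50 in IWP2_removed (edgeR adjusted p = 0.505) and 1.16 ± 0.50 in IWP2 (edgeR adjusted p = 0.298). Without IWP2 replicate 1 the IWP2 value was 1.72 and passed (adjusted p = 0.0337). In IWP2_removed, IWP2 and control alike, replicate 2 had the higher level of Crabp1 and of Crabp2. The summed level of 8 epiblast markers was 826 and 935 TPM in IWP2_removed replicates 1 and 2, 584 and 1204 TPM in IWP2 replicates 1 and 2, and 876 and 675 TPM in control replicates 1 and 2. Pou5f1 made up most of that sum in each of these libraries. Per length, Fgf5 and Tdgf1 were higher in replicate 1 of each of these groups, and Sox2 and Otx2 in replicate 2. The part of the marker sum in the Crabp1 and Crabp2 values was not tested.

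Rarb, the receptor gene that retinoic acid itself induces through the printed DR5 (chr14:16430839-16819156), had 0.35, 0.759 and 1.20 CPM in Dkk1_KO, 7.08 and 2.70 CPM in IWP2_removed, 5.45 and 4.82 CPM in IWP2, and 2.94 and 5.97 CPM in control. The Dkk1_KO libraries lay below all others, with 5, 10 and 17 estimated reads, while the other groups overlapped. Rarb fell to 0.173 of control in Dkk1_KO (log2 −2.53 ± 0.58 SE, edgeR adjusted p = 0.00763). Without control replicate 2 the log2 fold change was −1.89 (adjusted p = 0.0756), and on the log2(TPM + 1) scale it was −0.97 (limma adjusted p = 0.00722). The log2 fold change was 0.13 ± 0.58 in IWP2_removed (edgeR adjusted p = 0.98) and 0.19 ± 0.58 in IWP2 (edgeR adjusted p = 0.92). At these levels the standard error leaves room for changes in either direction. Rarb overlaps Top2b and the antisense gene Gm48162 on the other strand.

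Rarg encodes a receptor found in early embryonic cells (chr15:102234938-102257517), and it was the more abundant of the 2 receptor genes in every library. It had 25, 26.1 and 26 CPM in Dkk1_KO, 39.7 and 37.6 CPM in IWP2_removed, 33.9 and 51.2 CPM in IWP2, and 31.1 and 40.2 CPM in control. The Dkk1_KO libraries lay below all others and the remaining groups overlapped. The Dkk1_KO difference did not pass (0.721 of control, log2 −0.47 ± 0.19 SE, edgeR adjusted p = 0.0744). It passed where transcript length entered the fit, at −1.01 with a length offset in edgeR (adjusted p = 0.0209) and at −1.04 on log2(TPM + 1) in limma (adjusted p = 0.0238), and also when either IWP2 library was left out (adjusted p 0.0153 and 0.018). The fits with transcript length rest in part on Rarg-206, a transcript of short effective length that held 8.37 of the 18.7 TPM in control replicate 2 and 8.28 of the 21.2 TPM in IWP2 replicate 1, from 1 estimated read in each. No difference passed between control and IWP2_removed (log2 0.12 ± 0.21, edgeR adjusted p = 0.921) or IWP2 (log2 0.25 ± 0.21, edgeR adjusted p = 0.617). Per length and without Rarg-206, Rarg stood at 22.8, 42.5 and 12.7 times the level of Rarb in Dkk1_KO, 7.53 and 6.98 times in IWP2_removed, 6.76 and 11.5 times in IWP2, and 8.92 and 5.45 times in control (ratios of TPM). With it the ratio was 11.1 in IWP2 replicate 1 and 9.88 in control replicate 2.

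**Figure D3:**
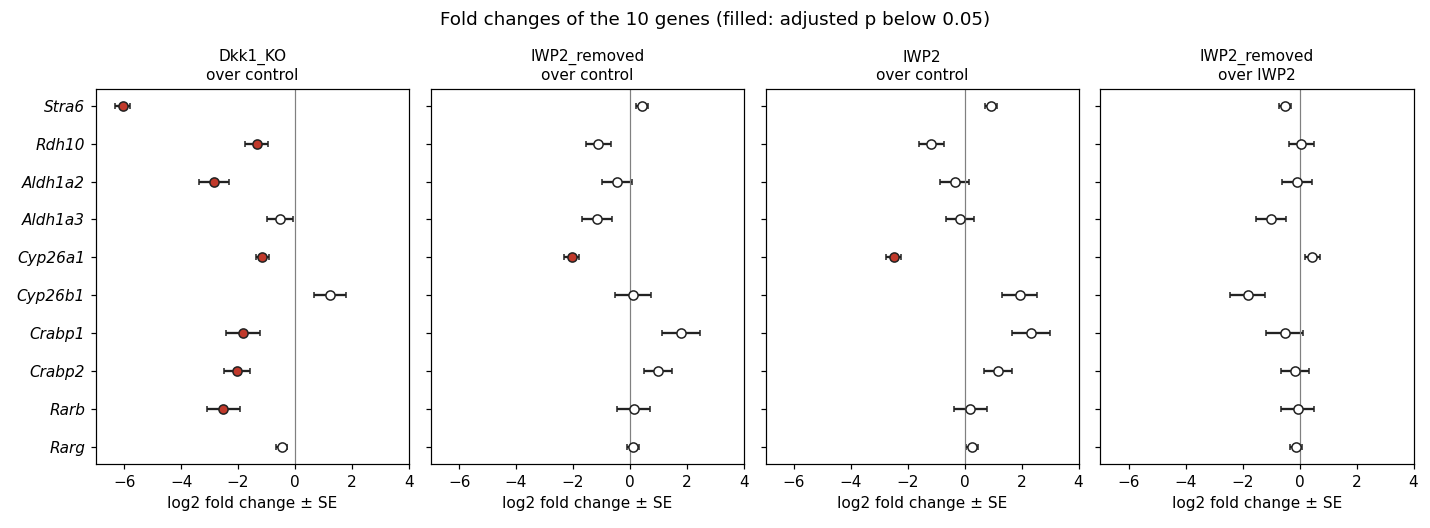
Log2 fold change of each gene with its standard error in the 4 comparisons, from Dkk1_KO over control on the left to IWP2_removed over IWP2 on the right; filled points have an edgeR adjusted p below 0.05. The 7 filled points over control in Dkk1_KO run from −6.05 (Stra6) to −1.15 (Cyp26a1), and Cyp26a1 is the only filled point in IWP2 and in IWP2_removed.

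Both receptor genes have more than 1 start, and the estimated levels of single transcripts give an estimated share for each. Of the level of Rarb, the transcripts that start in the window with the DR5 (Rarb-201, Rarb-202 and Rarb-205) held 69.6%, 100% and 43.2% in Dkk1_KO, 94.6% and 74.8% in IWP2_removed, 81.4% and 92.5% in IWP2, and 86.6% and 94.3% in control. The starts in this window thus held most of the level in each of the 6 libraries without Dkk1_KO and varied over the few reads of Dkk1_KO. Rarb-201 is annotated to start at 16575543 on the minus strand, so the motif at 16575513-16575529 lies inside it. Rarb-202 and Rarb-205 start past the motif. Of the level of Rarg, the outer start (Rarg-201) held 20.9%, 17.8% and 30.6% in Dkk1_KO, 2.41% and 15% in IWP2_removed, 10.4% and 14.4% in IWP2, and 6.62% and 8.52% in control. With Rarg-206 left out of the total, the share was 17.0% in IWP2 replicate 1 and 15.4% in control replicate 2, against 17.8% in the lowest Dkk1_KO library, so that the gap between Dkk1_KO and the other libraries is small. The inner start (Rarg-202) held 61.5% to 71.2% in Dkk1_KO, 76.6% in each IWP2_removed library, 32.8% and 84.0% in IWP2, and 76.2% and 46.6% in control. Without Rarg-206 the inner start held 53.7% in IWP2 replicate 1 and 84.6% in control replicate 2. Rarg-206 was at 0 in the other 7 libraries. Transcripts of a gene share many of their reads, so these shares are estimates without a counting interval, and no test was made on them.

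**Figure D4:**
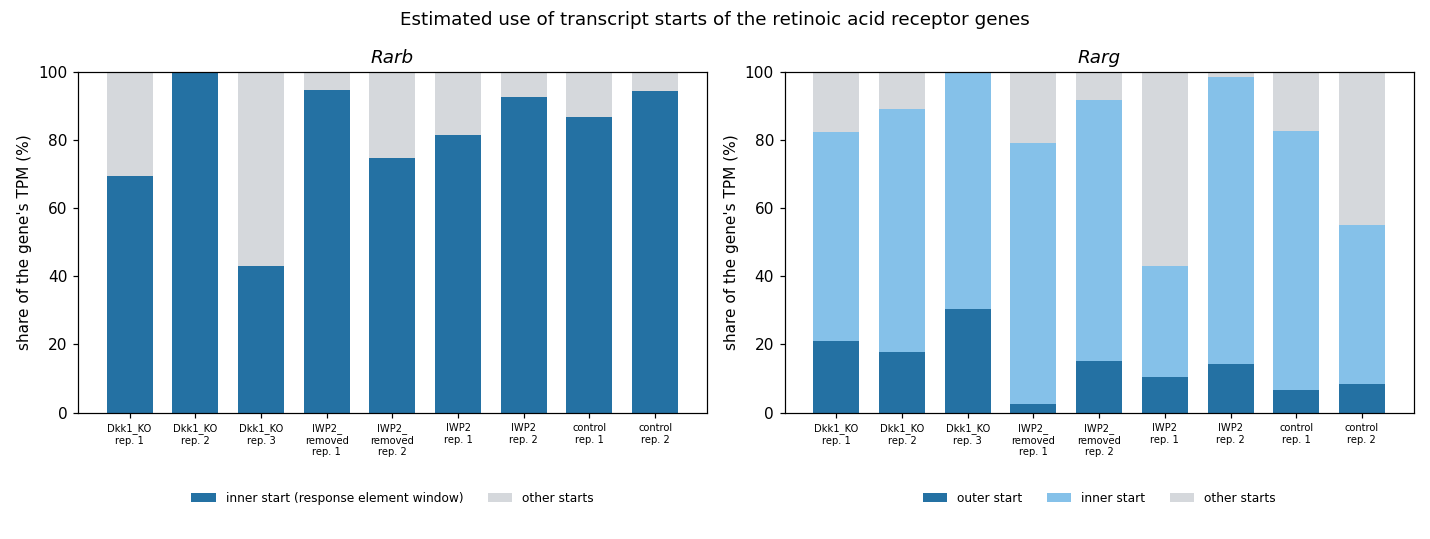
Share of the level (TPM) of Rarb and Rarg held by transcripts of each start, in percent, for every library from Dkk1_KO on the left to control on the right; grey marks all other transcripts. For Rarg the outer start takes 17.8% to 30.6% in Dkk1_KO, and the large grey parts in IWP2 replicate 1 and control replicate 2 are mostly Rarg-206, which rests on 1 read in each.

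Further genes of retinoid metabolism and response were read from 3 lists with 52 genes in all. The lists were chosen with earlier results of these data known. Of 22 genes of synthesis and transport 14 passed the filter on low counts. In Dkk1_KO 3 of these fell and none rose, where 23.0% of all genes tested fell and 21.3% rose. At an unadjusted p below 0.05, 3 were lower and 1 higher, against 9384 of all 18096 genes tested in either direction. Dhrs4, which encodes a retinoid reductase, had 7.36 to 9.88 CPM in Dkk1_KO against 28.8 and 19.9 CPM in control (log2 −1.48 ± 0.20 SE, edgeR adjusted p = 0.000519). Fabp5, which carries retinoic acid to the receptor PPARD, had 58.9 to 63.9 CPM in Dkk1_KO against 138 and 132 CPM in control (log2 −1.14 ± 0.17, edgeR adjusted p = 0.000888). Aldh1a1, the gene of another retinaldehyde dehydrogenase, had 0.841, 0.835 and 1.13 CPM in Dkk1_KO, 0.968 and 0.44 CPM in IWP2_removed, 1.5 and 1.86 CPM in IWP2, and 4.10 and 5.16 CPM in control. Control was the highest group without overlap. Aldh1a1 fell in Dkk1_KO (log2 −2.30 ± 0.38, edgeR adjusted p = 0.00147) and in IWP2_removed (log2 −2.70 ± 0.44, edgeR adjusted p = 0.0325), and in IWP2 the value was −1.46 ± 0.41 (edgeR adjusted p = 0.114). The IWP2_removed call ended under 14 of 22 alternatives, with adjusted p from 0.0515 to 0.285, among them the omission of any Dkk1_KO, IWP2_removed or control library. In IWP2 none of this list passed in edgeR, with 2 higher and 1 lower at an unadjusted p below 0.05. Of all 18096 genes tested, 2972 had such a p there in either direction. DESeq2 called Fabp5 (log2 0.76, adjusted p = 0.0107) and Rdh5 (log2 1.25, adjusted p = 0.04) higher there, and limma called Aldh1a1 lower (log2 −0.78, adjusted p = 0.0477).

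Of 11 receptors and coregulators, all of which passed the filter, 1 rose and 1 fell in Dkk1_KO, against 21.3% and 23.0% of all genes tested. Ncoa3, a coactivator of nuclear receptors, had 199, 208 and 208 CPM in Dkk1_KO against 49.0 and 52.1 CPM in control (log2 2.02 ± 0.13 SE, edgeR adjusted p = 9.76e-06). Rxrg, a partner receptor, had 0.21, 0.607 and 0.708 CPM in Dkk1_KO against 4.72 and 4.91 CPM in control (log2 −3.23 ± 0.40, edgeR adjusted p = 0.000316). In IWP2 and IWP2_removed none of the 11 passed in edgeR, with 2 higher and 1 lower at an unadjusted p below 0.05 in each. Of all 18096 genes tested, 2972 in IWP2 and 2154 in IWP2_removed had such a p in either direction. DESeq2 called Rxrg (log2 1.29, adjusted p = 0.0189) and Rara (log2 0.56, adjusted p = 0.0129) higher in IWP2_removed and none of the 11 in IWP2, and limma called none in either. Between IWP2_removed and IWP2 no gene of the 3 lists passed in edgeR, and limma called none. At an unadjusted p below 0.05, 3 were higher and 6 lower, against 1754 of all 18096 genes tested in either direction.

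Of 19 known target genes 18 passed the filter, and in Dkk1_KO 4 rose and 10 fell, with a median log2 fold change of −1, where 21.3% of all genes tested rose and 23.0% fell. Among those with the smallest adjusted p were Meis2, which encodes a partner of HOX proteins, Efnb1, an ephrin gene, and Hoxa4. Meis2 had 3.85, 5.31 and 4.88 CPM in Dkk1_KO, 168 and 224 CPM in IWP2_removed, 219 and 260 CPM in IWP2, and 135 and 130 CPM in control (Dkk1_KO log2 −4.82 ± 0.19 SE, edgeR adjusted p = 1.27e-06). Hoxa4 had 0.561, 0.456 and 0.637 CPM in Dkk1_KO, 9.99 and 13.5 CPM in IWP2_removed, 17.0 and 16.4 CPM in IWP2, and 5.61 and 5.78 CPM in control. For Meis2 and Hoxa4 the Dkk1_KO libraries lay below control, and all 4 libraries of IWP2 and IWP2_removed lay above it. Hoxa4 fell in Dkk1_KO (log2 −3.35 ± 0.26, edgeR adjusted p = 2.44e-05) and rose in IWP2 (log2 1.55 ± 0.24, edgeR adjusted p = 0.0207), and in IWP2_removed the value was 1.04 ± 0.24 (edgeR adjusted p = 0.0904). Efnb1 had 14.1 to 15.0 CPM in Dkk1_KO against 104 and 110 CPM in control (log2 −2.90 ± 0.12, edgeR adjusted p = 1.56e-06). The call of Hoxa4 in IWP2 ended under 8 of 22 alternatives (edgeR adjusted p 0.0572 to 0.305). Among them was the omission of either control library, at log2 fold changes of 1.52 and 1.59. The others left the log2 fold change at 1.55 and changed only the libraries outside this comparison. These were the fits without any one of the Dkk1_KO libraries, with those libraries averaged to 1, without that group, and with only the 2 groups compared. Meis2 did not pass in IWP2_removed (log2 0.57 ± 0.18, edgeR adjusted p = 0.23) or in IWP2 (log2 0.86 ± 0.18, edgeR adjusted p = 0.0557), and it passed in IWP2 in DESeq2 (adjusted p = 0.0022).

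**Figure D5:**
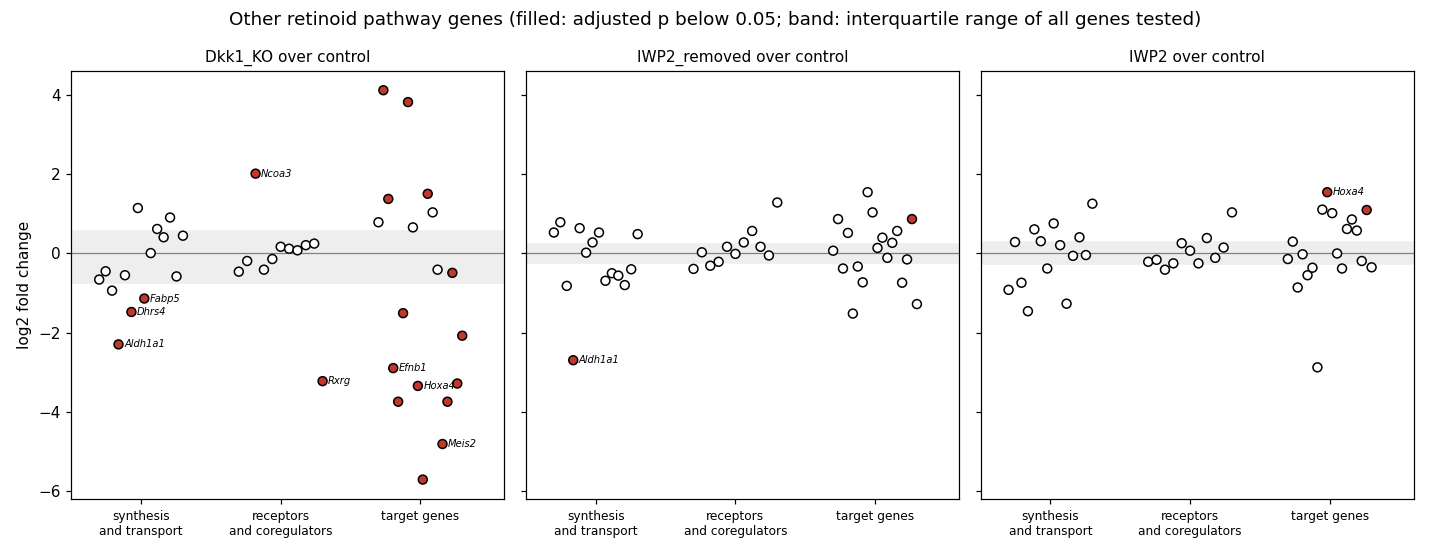
Log2 fold changes over control of the other retinoid genes that passed the filter, by list, for Dkk1_KO, IWP2_removed and IWP2 in separate panels; filled points have an edgeR adjusted p below 0.05 and the grey band is the interquartile range of all genes tested. Labels mark the called genes named in the text, and in Dkk1_KO 4 target genes are filled above 0 and 10 below it.

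The genes whose pattern over the 6 libraries without Dkk1_KO was most like that of each member were read as a description, by Pearson r of log2(CPM + 1) among genes that averaged 5 CPM or more. These libraries share 3 lines and 2 replicate numbers, and with 6 points high values of r arise among so many genes. Stra6 was most like Olfm1 (r = 0.999), which had 32.3 and 38.3 CPM in IWP2_removed, 60.5 and 48.5 CPM in IWP2, and 23.2 and 29.0 CPM in control. Cyp26a1 was most like Gk5 (r = 0.989) and Acsf2 (r = 0.987), and Acsf2 had 2.12 and 1.76 CPM in IWP2_removed, 1.95 and 1.10 CPM in IWP2, and 33.7 and 56.9 CPM in control. Rdh10 was most like Rhob (r = 0.996), with 106 and 61.4 CPM in IWP2_removed, 103 and 61.9 CPM in IWP2, and 171 and 106 CPM in control. Cyp26b1 was most like Slc12a7 (r = 0.992) and Apc2 (r = 0.986), Crabp1 like Stk32c and Fdft1 (r = 0.989 each), and Crabp2 like Polr2m (r = 0.997) and Nsun5 (r = 0.996). The lowest of the best values was that of Rarb, at 0.95 with Zbtb5.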

How the data were processed

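Per the labels' protocols, stranded mRNA libraries (TruSeq) were made from total RNA for 9 libraries in 4 groups. Per the submitters' processing notes the tools were Salmon (which estimates transcript levels), edgeR and DESeq2. Their versions and the transcriptome build are not given in the sources used here. The authors deposited, per transcript, estimated counts, which need not be whole, and TPM, which is scaled by transcript length and library. Transcripts were joined to GENCODE vM21 genes (GRCm38) by stable identifier. Of 133618 transcripts 133399 matched, 2166 with another version number, and the 219 others held 0.117% to 0.161% of the reads and were left out. Estimated counts were summed per gene and rounded to whole numbers.

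The test was edgeR's (4.0.16, under R 4.3.3; quasi-likelihood test, TMM scaling, filterByExpr, 1 mean per group over all 9 libraries, Benjamini-Hochberg over 18096 genes). A gene was called at an adjusted p below 0.05. Common dispersion was 0.0524. Standard errors belong to the log2 fold changes, and SD to levels over libraries. The 10 genes and the lists were chosen with earlier results of these data known. Of the lists, up to 4 called genes per comparison and list are named, those with the smallest adjusted p, and genes that only an alternative called were named after their values were seen. Some genes that this rule names are not reported here. The pipeline was tested on simulated data. Alternatives were DESeq2 1.42.0, limma 3.58.1 on log2(TPM + 1), other scalings and filters, a length offset, fewer groups, blocks and each library left out.

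Replicates differed by more than sampling noise in each group. The chi-square per degree of freedom of their counts was 1.79 to 2.27 in Dkk1_KO, 39.1 in IWP2_removed, 95.4 in IWP2 and 33 in control, so the Dkk1_KO libraries were far closer to each other than those of any other group. Promoter sequences are RefSeq's on GRCm38.p6.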

Additional observations from a re-analysis of the deposited data

How the results depend on the processing

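Of 860 recomputed fold changes of the 10 genes, 802 stayed on their side of the threshold, 29 lost a call and 29 gained one. The sign changed in 32, none of them called as reported or under the alternative, as for Crabp1 in IWP2_removed against IWP2 (log2 −1.72 to 0.75). With the Dkk1_KO libraries averaged to 1, 1 of the 10 genes (Stra6) was called in Dkk1_KO and 2724 genes of all, against 8018, and with each library left out in turn 4 to 9 members and 6143 to 9692 genes. The 4 came without control replicate 2, and the 9 without either IWP2 library. In IWP2, members called were 4 in DESeq2, 6 without a filter on low counts, 2 in the 6 libraries without Dkk1_KO with the file-name letter as a block (an alternative added after seeing the data), and 0 with only the 2 groups compared, with the 6 libraries without Dkk1_KO and with Dkk1_KO averaged. Leaving out each library gave 1 to 3. In IWP2_removed they were 4 without a filter, 2 with 6 libraries and the letter block, and 0 in the same 3 fits, with 0 to 1 over libraries left out. Between IWP2_removed and IWP2 the count was 1 without a filter and 0 to 1 over libraries left out.

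All genes called in IWP2 were 1056 in DESeq2, 219 in limma, 1220 without a filter, 169 with a length offset, 1 with 2 groups, 12 with 6 libraries and 10 with Dkk1_KO averaged, against 396, 448 with 6 libraries and the letter block, and 70 to 2432 over libraries left out, the highest without IWP2 replicate 1. The split of 230 higher and 166 lower became 94 and 125 in limma and 80 and 89 with the length offset. In IWP2_removed they were 663, 104, 732, 79, 10, 1 and 1 in the same order, against 227, 202 with 6 libraries and the letter block, and 14 to 738 over libraries left out, and the split of 121 higher and 106 lower became 37 and 67 in limma. Between IWP2_removed and IWP2 they were 388, 5, 414, 4, 0, 1 and 1, against 11, with 18 under a stricter filter, 3 with the letter block, 2 with 6 libraries and the letter block, and 0 to 454 over libraries left out. The cause of these shifts was not tested.

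Same-numbered libraries of the 3 groups without Dkk1_KO deviated together (r 0.46 to 0.685), and those of Dkk1_KO did not deviate with them (r −0.123 to −0.019). By file-name letter, Dkk1_KO replicates 2 and 3 go with replicates 1 and 2 of the other groups, and for these pairs r was −0.017 to 0.123. Each comparison has only 2 shared numbers, and the labels do not say what they stand for. With the replicate number as a block, the counts of members called were 7, 1, 1 and 0, as without it. The file-name letter as a block gave the same counts of members. With the number block all genes called were 135 in IWP2_removed against control and 2 in IWP2_removed against IWP2. Relative to all genes, limma on log2(TPM + 1) moved the median Dkk1_KO change to −0.135. Genes with 4 to 17 reads in a Dkk1_KO library (Stra6, Aldh1a2, Rarb) have fold changes that depend on few reads.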
